A study of Mus musculus with 18 samples.

Results

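A pair of B16F10 tumors were injected with free CDN2, an agonist of STING, in 2 doses whose amount the sample labels do not give, and their transcriptomes were compared with those of 2 tumors injected with 2 doses of PBS. These 4 tumors were chosen by their labels (CL656 or PBS, 2 doses, no amount written for CL656) out of 18 tumors in the series. The amount is therefore unknown here, and no dose is assigned to it. All tumors were grown under the skin of the right flank of female C57BL/6 mice aged 5 to 6 weeks from B16F10, a mouse melanoma line. Injections were intratumoral (IT), the second dose was given 3 days after the first, and tumors were taken 24 h after the last dose. Other groups used here were tumors given 1 dose of PBS, free CDN2 labelled 20 µg in 2 doses, and exoCDN2, in which 0.1 µg of the agonist was loaded on extracellular vesicles (EVs), in 2 doses, each with n = 2. Tumors given 1 dose of free CDN2 (20 µg or 100 µg), of exoCDN2 or of unloaded EVs gave levels for orientation. The labels name tumors and not mice, so p-values measure the spread between these tumors.

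STING is an adaptor protein of the endoplasmic reticulum that binds cyclic dinucleotides such as CDN2 and switches on the kinase TBK1 and the transcription factor IRF3. Cells then make type I interferons, chiefly interferon beta, which act through their receptor on elements called ISREs in the promoters of interferon-stimulated genes. Interferon gamma, made by T and NK cells, acts on a related set of genes that includes Cxcl9 and the interferon-inducible GTPases. In tumors these responses raise antigen presentation and draw in T cells and NK cells, and strong STING activation is also known for NF-kB cytokines and neutrophil entry.

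The deposited libraries of the 4 tumors had like total counts. The total expected count was 45019718 and 45639988 for the tumors of unlabelled amount and 45635359 and 45497629 for the tumors given 2 doses of PBS, and the 18 tumors ranged from 21608895 to 65983630. The second tumor of unlabelled amount, on which many calls below rest, stood apart in composition. Its 10 most abundant genes held 14.3% of its counts, beside 7.82 to 8.52% in the other 3 tumors, and its size factor was 0.886, beside 1.089 to 1.164. The part of this in the calls was not tested beyond leaving the tumor out. Between replicates, log2 levels correlated across genes with r = 0.979 for free CDN2 of unlabelled amount and r = 0.983 for 2-dose PBS, and 13.8% and 12.4% of the 17110 genes tested differed over 2-fold within the pair. All 12 melanocyte and B16 genes listed, among them Pmel and Tyrp1 of the pigment pathway, were tested, and their mean level was 15.5 to 15.7 in the tumors of unlabelled amount. All levels below are on bulk tumor RNA, in which more cells of a type and more RNA per cell cannot be told apart.

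The PBS groups differed in their interferon gene levels. The mean level of 60 interferon-stimulated genes, as log2(normalised count + 1), was 8.36 and 7.83 in the tumors given 2 doses of PBS. These were the lowest of the 18 tumors. The tumors given 1 dose of PBS stood at 10 and 10.07, those given 1 dose of unloaded EVs at 9.73 and 9.68, and those of unlabelled amount at 9.9 and 10.15. The remaining agonist-treated tumors lay between 12.02 and 12.91, with the 20 µg tumors given 2 doses at 12.91 and 12.8 and the exoCDN2 tumors given 2 doses at 12.68 and 12.24. The tumors of unlabelled amount thus lay above 2-dose PBS, on either side of 1-dose PBS, and below both other 2-dose agonist groups.

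**Figure D1:**
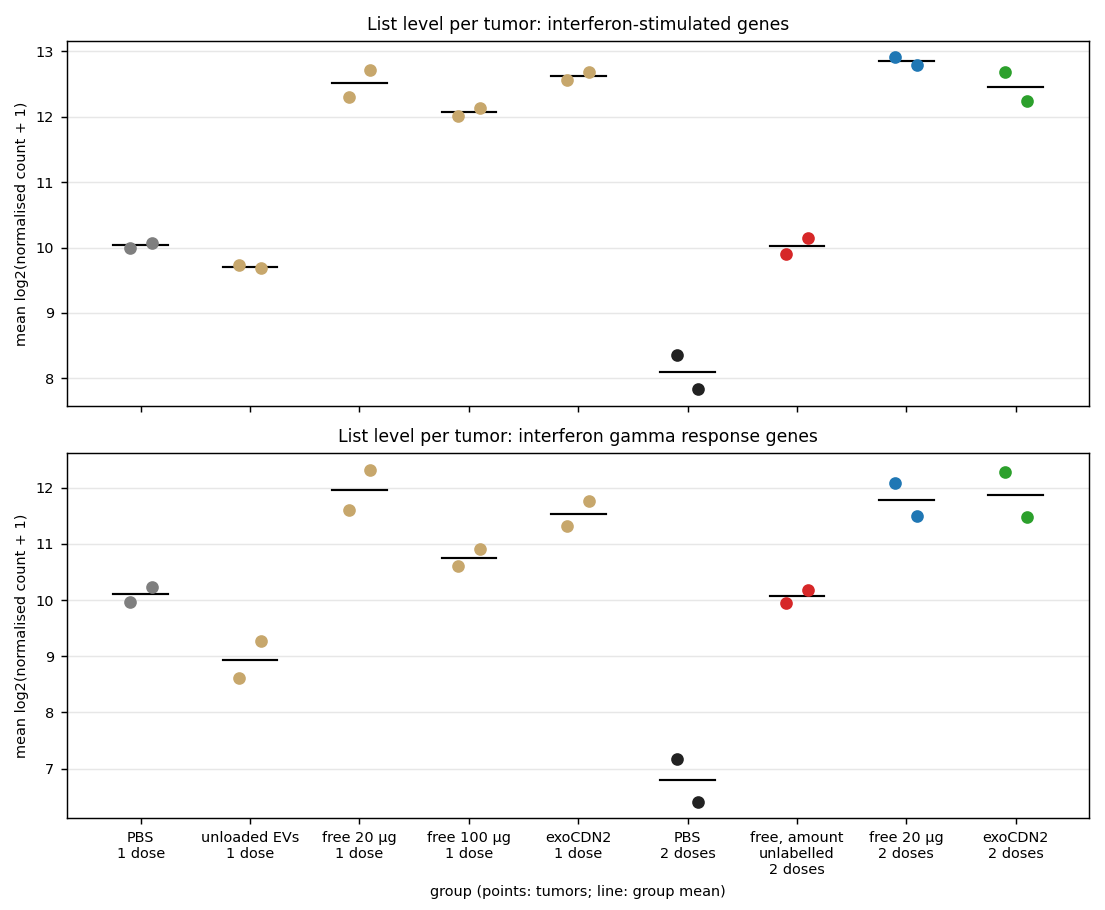
Mean log2(normalised count + 1) over 60 interferon-stimulated genes (upper panel) and 36 interferon gamma response genes (lower panel), on the vertical axis, for each of the 18 tumors by group; points are tumors and lines are group means. The 2 tumors of unlabelled amount (red) sit at 9.9 and 10.15 in the upper panel, beside 1-dose PBS (10 and 10.07) and above 2-dose PBS (8.36 and 7.83).

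Against 2-dose PBS, 157 genes were higher and 7 were lower in the tumors of unlabelled amount (0.918% and 0.0409% of genes tested; edgeR quasi-likelihood test, Benjamini-Hochberg adjusted p under 0.05 and ratio over 2, called "changed" below). Of the 157 higher genes, 79 belonged to the lists of interferon-stimulated, interferon gamma response or MHC class I presentation genes, which together held 117 tested genes. The log2 fold changes of all 157 ran from 1.01 to 6.31, with a median of 2.42. The total of 164 changed genes, both directions together, depended on each tumor: it was 62 without the second PBS tumor, 324 without the first, 76 without the second tumor of unlabelled amount and 619 without the first, and DESeq2 called 357.

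Sequence upstream of the 157 higher genes was read from the RefSeq promoter table (GRCm38.p6). The ISRE is a known element of interferon-stimulated genes, and 79 of the 157 belonged to the interferon-stimulated, interferon gamma or class I lists. The letters GAAANNGAAA, on either strand, occurred in the 250 bases before an annotated start for 41 of the 122 higher genes that had a window (33.6%), and for 406 of 11967 tested genes (3.39%). The letters TTCNNNGAA of the gamma-activated site, which read the same on both strands, occurred for 18 of the 122 (14.8%) and 877 of the 11967 (7.33%). As examples, 4 genes of the group are shown by the 150 bases that end just before the start site, 5′ to 3′ on the gene's strand, with capitals at every match to GAAANNGAAA or its reverse complement. The windows are Isg15 at chr4:156200819-156200968 (minus strand), Gbp3 at chr3:142559894-142560043 (plus), Igtp at chr11:58199406-58199555 (plus) and Irgm1 at chr11:48871421-48871570 (minus).
Isg15: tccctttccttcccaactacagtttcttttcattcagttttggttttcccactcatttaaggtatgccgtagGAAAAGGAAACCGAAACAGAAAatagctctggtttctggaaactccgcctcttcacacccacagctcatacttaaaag
Gbp3: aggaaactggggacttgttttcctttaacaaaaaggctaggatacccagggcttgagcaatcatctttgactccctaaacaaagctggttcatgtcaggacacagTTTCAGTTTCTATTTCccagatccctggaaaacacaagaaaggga
Igtp: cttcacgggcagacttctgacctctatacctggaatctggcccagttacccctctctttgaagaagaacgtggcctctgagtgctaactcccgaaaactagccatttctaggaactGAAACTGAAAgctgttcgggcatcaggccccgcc
Irgm1: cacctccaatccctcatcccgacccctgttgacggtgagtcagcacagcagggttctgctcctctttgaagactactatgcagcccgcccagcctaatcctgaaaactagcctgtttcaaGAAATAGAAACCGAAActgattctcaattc
In Isg15 and Irgm1 matches overlap into one run, in Gbp3 the matches are on the opposite strand, and in Igtp there is a single match. A match describes these letters and was not tested for binding.

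Among interferon-stimulated genes, 40 of 60 rose against 2-dose PBS and none fell. The list's median log2 fold change was 1.84, beside 0.01 over all genes tested. Isg15, a ubiquitin-like protein that is conjugated to targets during antiviral responses, had 959 and 1374 normalised counts in the tumors of unlabelled amount. Isg15 had 181 and 187 in the tumors given 2 doses of PBS, so the groups did not overlap (log2 fold change 2.65 ± 0.27 (SE), adjusted p = 2e-04). Usp18, the protease that removes ISG15 and dampens interferon receptor signalling, had 786 and 1117 normalised counts against 161 and 152 (2.59 ± 0.24, edgeR adjusted p = 0.00012). Oasl2, a member of the oligoadenylate synthetase family, gave the smallest p of the comparison. Its normalised counts were 1361 and 1450 against 211 and 192 (2.79 ± 0.2, edgeR adjusted p = 2.6e-05). Rtp4, a chaperone of receptors that interferon induces, rose by 2.55 ± 0.23, Irf7, the transcription factor that amplifies type I interferon, by 2.41 ± 0.28, and Zbp1, a sensor of Z-form nucleic acid, by 3.81 ± 0.45.

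Other effectors gave smaller or less certain differences. Bst2 (tetherin), which holds budding virions at the membrane, had 7165 and 8789 normalised counts against 2099 and 2242 (1.87 ± 0.26, edgeR adjusted p = 0.0018). Rsad2 (viperin) had 3677 and 2830 against 898 and 639, and its adjusted p was 0.011. The call for Rsad2 was lost without the second PBS tumor. Ifit1, which binds foreign RNA caps, had 946 and 1687 against 301 and 199 (edgeR adjusted p = 0.039), and its call was lost when either PBS tumor or the second tumor of unlabelled amount was left out. The Ifit1 call was also lost with a block on replicate number. Mx1, an antiviral GTPase, had 241 and 177 against 99.6 and 43.2 and did not pass (edgeR adjusted p = 0.18).

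The interferon beta gene itself was near the detection limit in the tumors of unlabelled amount. Ifnb1, which encodes interferon beta, had 0 and 2 counts in the tumors of unlabelled amount and 0 and 0 in those given 2 doses of PBS. It had 6 and 6 counts in the tumors given 1 dose of PBS, 185 and 40 in the 20 µg tumors and 7 and 3 in the exoCDN2 tumors given 2 doses. Of the 18 tested genes for interferons, their receptors and receptor kinases, none changed against 2-dose PBS. The list's median log2 fold change was 0, its lower quartile was also 0, and 8 of 18 were positive. The filter on low counts used all groups, so interferon genes could pass it through their level in other tumors. The list's mean log2 level was 7.03 to 8.35 after 1 dose of agonist, beside 5.7 and 5.64 in the tumors of unlabelled amount. Members with few or no counts in both groups compared could hardly be called, so the absence of calls says little about them. In the STING pathway 1 of 20 genes changed: Ifi204, a DNA sensor, rose by 2.17 ± 0.46 (edgeR adjusted p = 0.038; lost without the second PBS tumor or the second tumor of unlabelled amount). The Ifi204 call was also lost with a block on replicate number. Tmem173, which encodes STING, had 2433 and 3017 normalised counts against 2079 and 2355 (0.29 ± 0.17, edgeR adjusted p = 0.61).

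The interferon gamma response list showed larger differences against 2-dose PBS: 23 of 36 genes rose, none fell, and the median log2 fold change was 3.1. Cxcl9, the ligand that draws CXCR3-bearing T cells, had 2202 and 2886 normalised counts against 147 and 88.2 (4.42 ± 0.42, edgeR adjusted p = 0.00012). Gbp3, a guanylate-binding protein of cell-autonomous defence, had 2363 and 3260 against 245 and 110 (3.97 ± 0.35, edgeR adjusted p = 0.00012). The immunity-related GTPases moved in the same direction. Igtp had 7814 and 8445 normalised counts against 408 and 253, Irgm1 had 14528 and 15984 against 1581 and 694, and Irgm2 had 4571 and 3032 against 463 and 357. Ifi47 rose by 4.21 ± 0.41. Igtp overlaps Irgm2 in the annotation, and Ifi47 overlaps Olfr56, so reads could be split between them. Ifng had 39 and 63 counts in the tumors of unlabelled amount and 2 and 0 in those given 2 doses of PBS, which did not pass the test (edgeR adjusted p = 0.074), while DESeq2 and the fit without the first tumor of unlabelled amount called it.

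Genes of MHC class I presentation rose in 17 of 22 cases, with a median log2 fold change of 2.25. Tap1, a subunit of the peptide transporter of the endoplasmic reticulum, had 4827 and 5940 normalised counts against 595 and 608 (3.15 ± 0.35, edgeR adjusted p = 0.00034). Tap2, its partner, had 1879 and 2306 against 250 and 292. Tapbp, which holds the transporter to class I molecules, had 5845 and 6663 against 1412 and 1513. Nlrc5, the transactivator of class I genes, rose by 2.88 ± 0.38. The class I count fell to 4 genes without the second PBS tumor, 5 without the second tumor of unlabelled amount and 11 without the first PBS tumor. None of the 14 class II genes changed, and Ciita, their transactivator, had 299 and 207 normalised counts against 33.5 and 29.4 (edgeR adjusted p = 0.13).

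**Figure D2:**
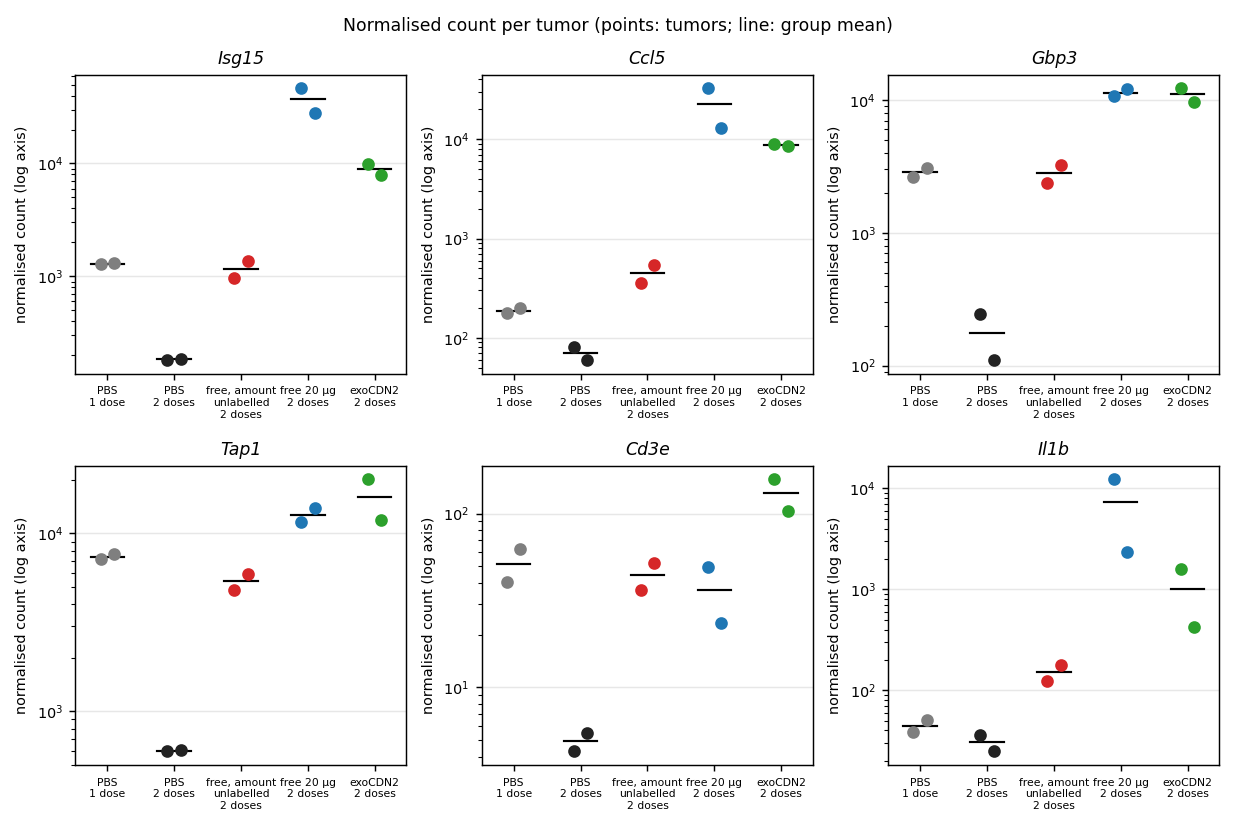
Normalised counts (log axis) of Isg15, Ccl5, Gbp3, Tap1, Cd3e and Il1b in each tumor of 5 groups; points are tumors and lines are group means. For all 6 genes both tumors of unlabelled amount (red) lie above both tumors given 2 doses of PBS (black), and for Ccl5 and Il1b alone they also lie above both tumors given 1 dose of PBS (grey).

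Chemokines and lymphocyte genes gave fewer calls. Of 27 chemokines, 7 rose, among them Ccl5, a T cell and monocyte attractant, with 359 and 543 normalised counts against 80.7 and 59.7 (2.67 ± 0.38, edgeR adjusted p = 0.0019). Cxcl10, a further CXCR3 ligand, had 3421 and 3624 against 575 and 381, and Ccl12, a monocyte attractant, had 103 and 267 against 30.1 and 38.6. The chemokine count fell to 2 or 3 genes when either PBS tumor or the second tumor of unlabelled amount was left out. Among NK and cytotoxic genes, 3 of 14 rose: Gzmb (granzyme B, 291 and 382 against 44.7 and 25.7), Prf1 (perforin, 172 and 150 against 25.8 and 23.9) and Tbx21, the T-bet factor of type 1 cells (19 and 21.5 against 3.44 and 3.67). One of 16 T cell genes rose, Cd3e of the receptor complex, with 36.3 and 51.9 normalised counts against 4.29 and 5.51 (edgeR adjusted p = 0.038). Cd8a did not pass, with 128 and 116 against 16.3 and 6.43 (edgeR adjusted p = 0.066), although 15 of the 16 T cell genes had positive fold changes. All 14 NK and cytotoxic genes also had positive fold changes. The median log2 fold changes were 2.31 for the T cell list and 2.62 for the NK and cytotoxic list. Against 1-dose PBS these medians were 0.06 and 0.4. The calls for Prf1, Tbx21 and Cd3e were lost when any 1 of those 3 tumors was left out, and that for Gzmb without the second PBS tumor or the second tumor of unlabelled amount.

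Of 15 checkpoint genes 2 rose. Pdcd1, the receptor PD-1, had 49 and 44 normalised counts against 6.87 and 4.59 (edgeR adjusted p = 0.038), and Lgals9, the ligand galectin-9, had 4378 and 6113 against 2127 and 2475 (edgeR adjusted p = 0.0052). Cd274, which encodes PD-L1, had 1178 and 777 against 312 and 229 and did not pass (edgeR adjusted p = 0.078). A total of 5 of 25 cell death genes rose, among them Tnfsf10 (the death ligand TRAIL, 2.62 ± 0.34) and Mlkl, the effector of necroptosis (1.08 ± 0.22). Leaving out the second tumor of unlabelled amount ended the calls for Pdcd1, Lgals9 and Mlkl.

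No inflammatory cytokine, neutrophil or cell cycle gene was called against 2-dose PBS, although the mean levels of the inflammatory and neutrophil lists lay above both PBS tumors. The inflammatory list was at 6.68 and 6.75 against 6.28 and 6.13, and the neutrophil list at 2.64 and 3.13 against 2.55 and 1.82, as mean log2(normalised count + 1). None of 33 genes for inflammatory cytokines and NF-kB targets changed (edgeR; 0 with DESeq2, 5 without the filter on low counts, 2 in a fit of only the 2 groups and 1 without the first tumor of unlabelled amount), with a median log2 fold change of 0.3 and 25 of 33 positive. Tnf had 58.9 and 41.8 normalised counts against 16.3 and 11 (edgeR adjusted p = 0.3). None of 14 neutrophil genes changed (edgeR; 1 with DESeq2, 4 without the filter and 1 in the fit of only the 2 groups), with a median of 1.01 and 10 of 14 positive. That median was 0.22 to 1.63 with any 1 of the 4 tumors left out. Neutrophil levels this low leave little room for a call. S100a8, a neutrophil calgranulin, had 8.16 and 53.1 normalised counts against 6.01 and 6.43. None of 32 cell cycle genes changed (edgeR; 0 with DESeq2, 2 without the first PBS tumor), with a median of 0.03, and none of 12 melanocyte genes did. The macrophage and monocyte list also held no call, with a median of 0.88, 16 of 18 genes positive and a mean level of 9.55 and 9.97 against 9.09 and 8.73, and its part in the interferon levels was not tested. Markers of skin, muscle and blood held no call either. The keratinocyte list had a median of 1.69 with 10 of 12 positive. Summed keratinocyte genes were at 218 and 131 normalised counts against 125 and 108, skeletal muscle genes at 4819 and 6847 against 9893 and 17880, and erythroid genes at 3453 and 11490 against 5657 and 5670.

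In the fit of all groups 7 genes were lower than in 2-dose PBS. This count was 26 with DESeq2, 36 in a fit of only the 2 groups, 127 without the filter on low counts, and 110 without the first and 0 without the second tumor of unlabelled amount. Serpinc1, which encodes antithrombin, had 1 and 1 counts in the tumors of unlabelled amount and 29 and 17 in those given 2 doses of PBS. That is a 20.3-fold lower level with an exact counting interval of 5.31 to 173 (95%, counting error only). Serpinc1 also had 41 and 76 counts in the tumors given 1 dose of PBS, 73 and 101 in the 20 µg tumors and 21 and 38 in the exoCDN2 tumors given 2 doses, and it was lower and changed against each of these 3 groups. Its call against 2-dose PBS was lost without the second tumor of unlabelled amount. Gxylt2, a xylosyltransferase that extends O-glucose on Notch, had 1199 and 847 normalised counts against 3361 and 2397 (fell by 1.5 on the log2 scale, edgeR adjusted p = 0.0069; lost without the second tumor of unlabelled amount). Adam33, a metalloprotease, had 2.72 and 6.78 against 30.9 and 21.1, and its call was lost when any 1 of the 4 tumors was left out. It was also lost with a block on replicate number.

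With tumors given 1 dose of PBS as the control, the picture differed. Here 5 genes changed, 1 higher and 4 lower (0.0292% of genes tested; 1296 genes had an unadjusted edgeR p under 0.05, and DESeq2 called 53, of which 5 were among the 164 genes above). With edgeR none of the 157 genes that were higher against 2-dose PBS changed, and 72 of them had positive and 85 negative log2 fold changes, with a median of -0.04. The interferon-stimulated list had a median of -0.01 and ranged from -0.84 to 0.64, and no member of it changed. The medians were -0.03 for the interferon gamma list, with 16 of 36 genes positive, and -0.4 for the class I list, with 4 of 22 positive, where the class I median against 2-dose PBS was 2.25. Isg15 had 1275 and 1313 normalised counts in the tumors given 1 dose of PBS, and the difference was -0.17 with a 95% interval of -0.7 to 0.36. Oasl2 had 1547 and 1497 (interval -0.53 to 0.26), Gbp3 had 2633 and 3072 (interval -0.69 to 0.61) and Tap1 had 7172 and 7619 (interval -1.17 to 0.22). Cd3e had 40.3 and 62.9 normalised counts in the tumors given 1 dose of PBS. This range overlapped that of the tumors of unlabelled amount. The 5 changed genes were Serpinc1 and the unnamed models Gm10131, Gm15542 and Gm4366, all lower, and Gm45140, which was higher.

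The PBS groups differed from each other in the same lists. 2-dose PBS against 1-dose PBS gave 209 lower genes and 8 higher (1.22% and 0.0468% of genes tested). Of the interferon-stimulated genes 43 of 60 were lower, with a median of -1.85, as were 25 of 36 interferon gamma response genes and 18 of 22 class I genes. This comparison shares the 2-dose PBS tumors with the one above and is given for its own values. Summed keratinocyte genes also differed, with 6402 and 3581 normalised counts in the tumors given 1 dose of PBS and 125 and 108 in those given 2 doses of PBS, while summed T cell genes were at 1445 and 1675 against 650 and 714. The tumors of unlabelled amount had 1560 and 1600 normalised counts of T cell genes. The number of injections and the time from the first injection to collection differ between the PBS groups and cannot be told apart. The sources used here do not say whether these groups were collected or sequenced together. The part of skin and T cell content in the interferon levels was not tested.

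With all 4 PBS tumors pooled as the control, edgeR called no gene in the tumors of unlabelled amount (smallest adjusted p 0.363; 1444 genes with an unadjusted p under 0.05), and DESeq2 called 25, of which 8 were among the 164 changed against 2-dose PBS. The median of the interferon-stimulated list was then 0.66. Without a test, both tumors of unlabelled amount lay above all 4 PBS tumors for 1185 genes (6.93% of genes tested) and below them for 1113 (6.5%). Of the 157 higher genes 32 did so. In the lists, 9 of 60 interferon-stimulated genes, 6 of 36 interferon gamma response genes and 0 of 22 class I genes lay above all 4, as did 11 of 27 chemokines, 5 of 14 NK and cytotoxic genes, 5 of 16 T cell genes and 12 of 25 hypoxia and glycolysis genes. Ccl5 was one of them, with 176 and 199 normalised counts in the tumors given 1 dose of PBS against 359 and 543. Il1b, the cytokine interleukin-1 beta, was another, with 125 and 178 normalised counts against 38.4 and 50.5 (1-dose PBS) and 36.1 and 24.8 (2-dose PBS). In its list of inflammatory cytokines and NF-kB targets 5 of 33 genes lay above all 4 PBS tumors and 1 below. The median of that list against 1-dose PBS was 0, with 16 of 33 positive. Car9, a carbonic anhydrase of hypoxic cells, had 9956 and 11606 normalised counts against 9199 and 7986 after 1-dose PBS and 2888 and 3595 after 2-dose PBS, where it was called (1.72 ± 0.34, edgeR adjusted p = 0.024; lost without either PBS tumor or the second tumor of unlabelled amount).

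**Figure D3:**
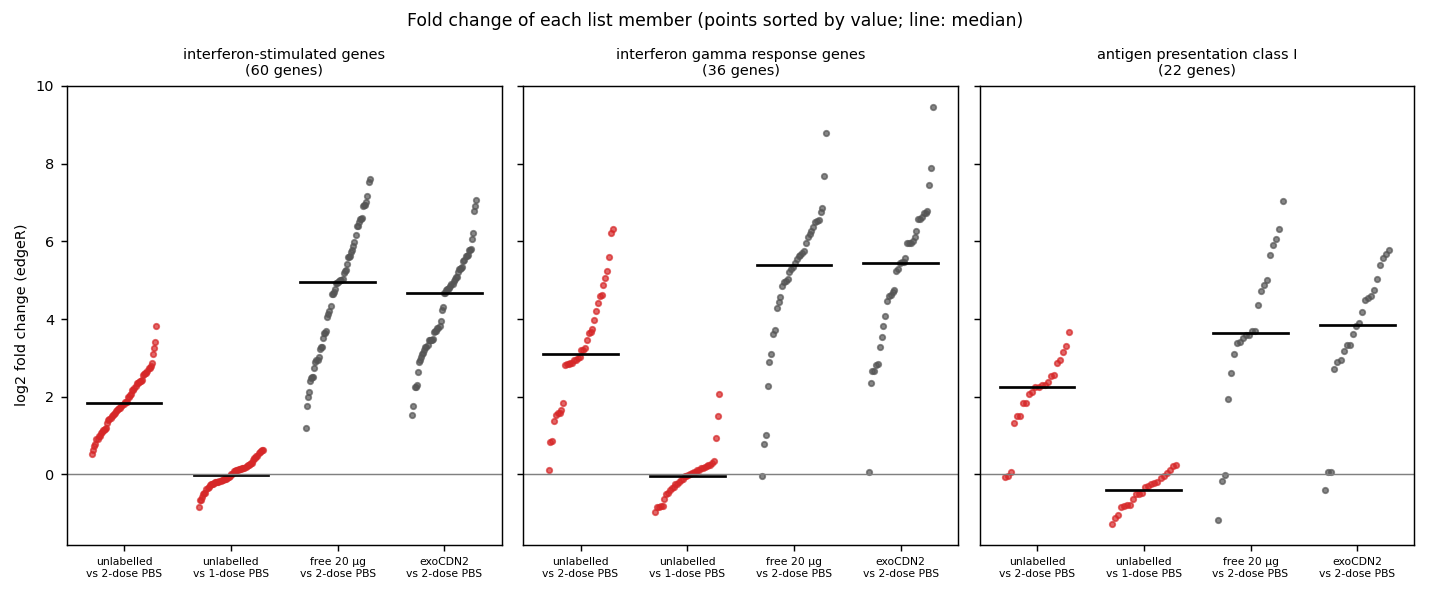
Log2 fold change (edgeR) of each member of 3 gene lists in the tumors of unlabelled amount against 2-dose PBS and against 1-dose PBS (red), and, beside them, in the 20 µg and exoCDN2 tumors given 2 doses against 2-dose PBS (grey); points are genes sorted by value and lines are medians. For interferon-stimulated genes the medians are 1.84, -0.01, 4.95 and 4.66.

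Beside the labelled 2-dose groups, the interferon response of the tumors of unlabelled amount was small. The 3 comparisons with 2-dose PBS share their control tumors, so their values are set side by side. Free CDN2 at 20 µg gave 3404 higher genes (19.9% of genes tested) and exoCDN2 gave 1511 (8.83%), where the unlabelled amount gave 157. The exoCDN2 total of 1912 changed genes was 1066 without the second PBS tumor and 942 without the first exoCDN2 tumor. All 60 interferon-stimulated genes rose with 20 µg and with exoCDN2, with medians of 4.95 and 4.66, beside 40 genes and 1.84. Against 1-dose PBS the medians were 2.83, 2.42 and -0.01 for 20 µg, exoCDN2 and the unlabelled amount. Summed over that list, normalised counts were 116900 and 136500 in the tumors of unlabelled amount, 744900 and 712900 at 20 µg, 586300 and 440600 with exoCDN2, 42240 and 37300 after 2-dose PBS and 126200 and 126500 after 1-dose PBS. For the interferon gamma list the medians were 3.1, 5.39 and 5.44, and for class I they were 2.25, 3.64 and 3.85.

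Tested directly against 20 µg in 2 doses, the tumors of unlabelled amount had 1499 higher and 2806 lower genes (8.76% and 16.4% of genes tested). The total of 4305 was 2638 without the first 20 µg tumor and 6571 without the second, and 28% of genes differed over 2-fold between these tumors. In the interferon-stimulated list 54 of 60 genes were lower and none higher, with a median of -2.74. Isg15 had 46528 and 27962 normalised counts at 20 µg (difference -4.96 ± 0.29, edgeR adjusted p = 1.8e-06). Oas3, which makes the activator of RNase L, had 286 and 381 normalised counts in the tumors of unlabelled amount against 7850 and 10247. Usp18 fell by 3.98 and Irf7 by 4.09 on the log2 scale. Ccl5 had 32633 and 12906 normalised counts at 20 µg (-5.62 ± 0.4, edgeR adjusted p = 4.2e-06), and Cxcl10 had 48229 and 32505. Cd274 had 17006 and 5639.

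The inflammatory and neutrophil lists, which held no call against 2-dose PBS, held many against 20 µg. A total of 30 of 33 inflammatory cytokine and NF-kB genes were lower, with a median of -3.01. Il1b had 12270 and 2370 normalised counts at 20 µg (-5.55 ± 0.78, edgeR adjusted p = 0.00028). All 14 neutrophil genes were lower, with a median of -7.7. The mean level of that list was 10.17 and 8.11 at 20 µg, beside 2.64 and 3.13 in the tumors of unlabelled amount. Because the filter on low counts used all groups, genes could pass it through their level at 20 µg. The count of lower neutrophil genes is therefore a description of that difference in level. Cxcr2, the chemokine receptor of neutrophils, had 2 and 4 counts in the tumors of unlabelled amount and 995 and 454 at 20 µg. Of the 12 skeletal muscle genes all were lower, with summed levels of 263800 and 131000 normalised counts at 20 µg. Ckm, muscle creatine kinase, fell by 5.44 on the log2 scale. Summed erythroid genes were at 49470 and 62560. Of 12 fibroblast and pericyte genes 5 were lower and 0 higher (median -0.76). Summed normalised counts of that list were 87720 and 41450 at 20 µg and 16640 and 17580 in the tumors of unlabelled amount. The part of muscle, blood and fibroblasts in the 20 µg tumors in these differences was not tested.

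Some interferon gamma and lymphocyte genes were not called against 20 µg. In the interferon gamma list 24 of 36 genes were lower and 1 higher. Iigp1, an immunity-related GTPase chosen here after its values were seen, had 7974 and 13452 normalised counts against 13810 and 13195, with a difference of -0.31 and an interval of -1.27 to 0.65. Nlrc5 differed by -0.21 (interval -0.97 to 0.55), Ifi47 by -0.75 (interval -1.53 to 0.02), Cd3e by 0.36 (interval -0.88 to 1.59), Cd8a by 0.48 (interval -0.99 to 1.95) and Pdcd1 by 0.06 (interval -1.09 to 1.21). The higher member was Ciita, at 299 and 207 normalised counts against 32.1 and 73.9 (2.2 ± 0.8, edgeR adjusted p = 0.042; lost when either tumor of unlabelled amount or the first 20 µg tumor was left out). Tcf7, a factor of naive and stem-like T cells that other cells also make, had 641 and 503 against 264 and 253 (1.17 ± 0.22, edgeR adjusted p = 0.0016). None of these intervals shows equal levels.

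Proliferation and pigment genes were higher in the tumors of unlabelled amount than at 20 µg. A total of 18 of 32 cell cycle genes were higher and none lower, with a median of 1.11. Top2a, the topoisomerase of dividing cells, had 24788 and 26239 normalised counts against 2543 and 6648 (2.48, edgeR adjusted p = 0.00044). Tfrc, the transferrin receptor, had 23160 and 33817 against 3087 and 4202 (2.98 ± 0.25, edgeR adjusted p = 1.8e-05). A total of 6 of 12 melanocyte genes were higher, among them Tyrp1 at 351634 and 450536 against 73840 and 176439 (1.69 ± 0.31, edgeR adjusted p = 0.0011). In the same comparison 14 of 14 neutrophil, 12 of 12 skeletal muscle, 5 of 6 erythroid and 5 of 12 fibroblast genes were lower, and 0 were higher. The part of these cell types in the proliferation and pigment differences was not tested.

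Tested directly against exoCDN2 in 2 doses, 242 genes were higher and 850 lower (1.41% and 4.97% of genes tested). The total of 1092 was 170 without the first exoCDN2 tumor and 276 without the second tumor of unlabelled amount. The balance of directions moved too, to 757 higher and 658 lower without the first tumor of unlabelled amount and to 13 higher and 309 lower in a fit of only the 2-dose groups. The first exoCDN2 tumor also had more RNA of skin genes, with summed keratinocyte genes at 4166 normalised counts beside 171 in the second and 218 and 131 in the tumors of unlabelled amount. None of the 12 keratinocyte genes was called, and the list's median was -4.23 with 0 positive. Of 12 fibroblast and pericyte genes 3 were lower (median -1.04), and of 6 erythroid genes 2 were higher (median 1.86). The part of these cell types in the differences from exoCDN2 was not tested. Interferon-stimulated genes were lower in 58 of 60 cases with a median of -2.44, and 47 to 57 of them were lower with any 1 of the 4 tumors left out. Isg15 had 9878 and 7943 normalised counts with exoCDN2 (-2.97 ± 0.27, edgeR adjusted p = 7.9e-05). Oas3 had 10522 and 5785 (-4.65 ± 0.32), Oasl2 had 12800 and 9119 (-2.99 ± 0.2) and Ccl5 had 8967 and 8464 (-4.31 ± 0.38). Gzmb had 5076 and 2474 (-3.52 ± 0.48, edgeR adjusted p = 0.00095), Prf1 had 1702 and 815 (-2.99 ± 0.46), and Tbx21 had 104 and 72.7 (-2.15 ± 0.42, edgeR adjusted p = 0.0081; lost without the first exoCDN2 tumor or the second tumor of unlabelled amount). A total of 10 of 14 NK and cytotoxic genes were lower. Of the 16 T cell genes 4 were lower, and Cd8a, at 494 and 400 with exoCDN2, did not pass (-1.9 ± 0.67, edgeR adjusted p = 0.095).

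The counts of 6 further lists moved with single tumors of this comparison. A total of 21 of 36 interferon gamma genes and 15 of 22 class I genes were lower than with exoCDN2, and these fell to 7 and 5 without the first exoCDN2 tumor and to 7 and 8 without the second tumor of unlabelled amount. Of the chemokines 12 of 27 were lower, and 5 to 15 with any 1 tumor left out, with 5 without the first exoCDN2 tumor and 7 without either tumor of unlabelled amount. Of the inflammatory genes 10 of 33 were lower, and 0 to 11, with none called without the first exoCDN2 tumor, 1 without the second tumor of unlabelled amount and 3 without the first. Of the neutrophil genes 8 of 14 were lower, and 0, 0, 1 and 8 with each tumor left out in turn. Cell cycle genes were higher in 12 of 32 cases, among them Ccnb1, cyclin B1, at 7820 and 10800 normalised counts against 2462 and 3642 (1.58 ± 0.21, edgeR adjusted p = 8e-04), and the count was 2 without the first exoCDN2 tumor, 21 without the second and 4 without the second tumor of unlabelled amount.

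**Figure D4:**
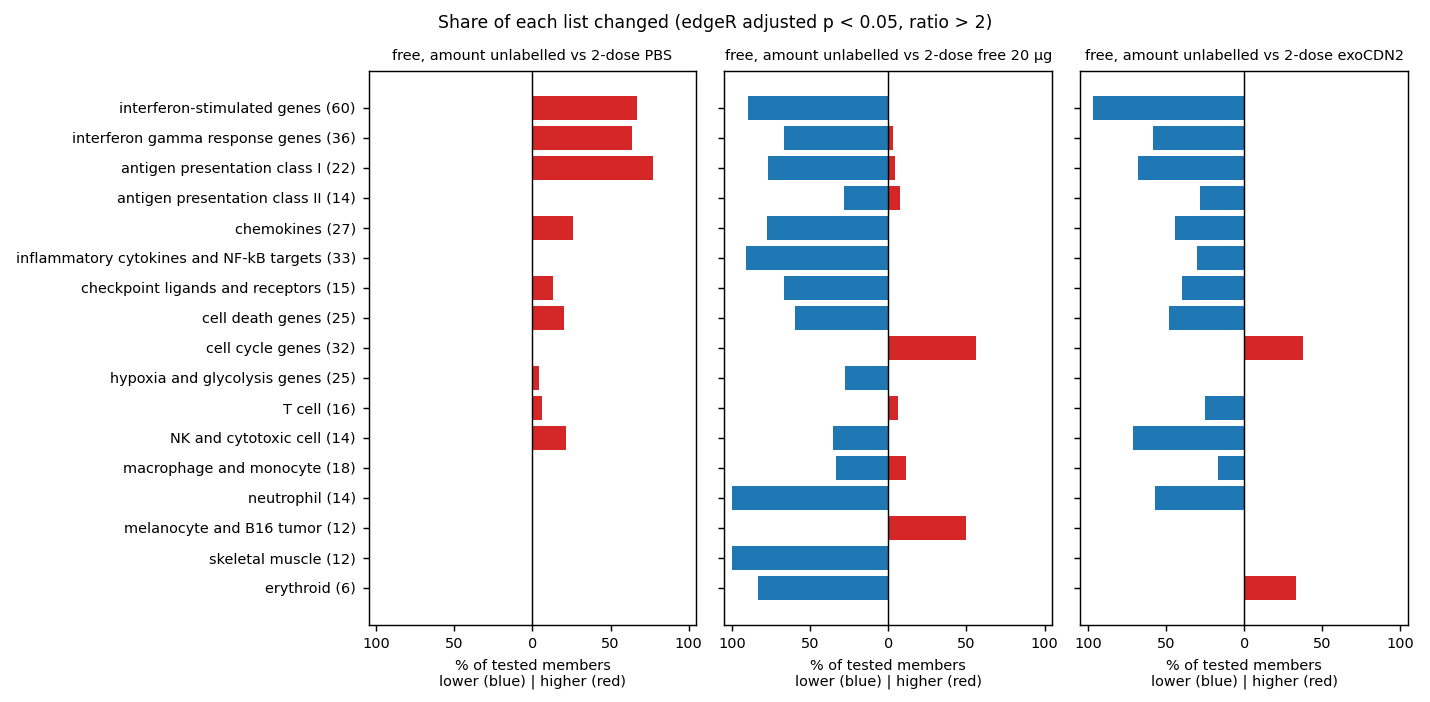
Share of tested members of each gene list (number tested in brackets) that were higher (red, to the right) or lower (blue, to the left) in the tumors of unlabelled amount, against 2-dose PBS, free CDN2 20 µg in 2 doses and exoCDN2 in 2 doses (edgeR adjusted p under 0.05, ratio over 2). Interferon-stimulated genes are higher against 2-dose PBS (40 of 60) and lower against both agonist groups (54 and 58 of 60), and the inflammatory and neutrophil lists show calls against the agonist groups only.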

How the data were processed

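Tumor RNA was sequenced by the authors (paired-end Illumina reads). Per the methods, OSA placed the reads on GRCm38, and the authors deposited expected counts per Ensembl gene estimated with RSEM; the labels' processing notes name RSEM and mm10. One table holds 50600 genes in 18 tumors, and 8.75 to 12.7% of values per tumor are not whole, so counts were rounded. How reads shared by near-identical genes were divided follows from RSEM's estimate, and Gbp, Tgtp, Ifit3 and Oas1 family values are uncertain for that reason. Symbols were found for 50376 IDs.

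Genes were filtered with filterByExpr (minimum count 10) and tested with edgeR 4.0.16 (R 4.3.3), TMM factors and quasi-likelihood, in a single fit of all 9 groups (9 residual degrees of freedom). A gene was called changed at a Benjamini-Hochberg adjusted p under 0.05 over 17110 genes and a ratio over 2. Intervals are 95%. With 2 tumors a group an exact permutation test cannot go below p = 0.333, so none was run. Normalised counts were divided by DESeq2 1.42.0 size factors, and log2 levels used a pseudocount of 1. The tests were checked on simulated counts.

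The groups, gene lists and tests were chosen with earlier results of these data known. Named genes were up to 10 higher and up to 10 lower changed genes of smallest p without overlap between groups (those named Gm or Rik left out). Up to 4 of each list each way and 5 each way of each direct comparison were added. So were 15 genes of the interferon, STING and T cell response, also chosen with earlier results of these data known. Other names are marked. Overlaps come from GENCODE M21. Motif windows were the 250 bases before each RefSeq start; 13011 of 15209 windows compared held the downstream bases of a GENCODE transcript in sense and 0 in antisense. Alternatives were DESeq2, RLE factors, no filter, smaller fits, no ratio limit, other PBS controls, a replicate block and leaving out each tumor. Other injected compounds and amounts in 1 dose served only as levels.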

Additional observations from a re-analysis of the deposited data

How the results depend on the processing

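With the tumors given 1 dose of PBS as the control, 5 genes changed in the tumors of unlabelled amount and 945 with exoCDN2, and the median log2 fold change of the interferon-stimulated list turned from 1.84 to -0.01. Gene values that turned sign with this control were -0.17 (Isg15), -0.13 (Oasl2), -0.49 (Mx1), -0.33 (Rsad2), -0.06 (Zbp1), -0.24 (Bst2), -0.04 (Gbp3), -0.2 (Igtp), -0.41 (Irgm2), -0.24 (Ifi47), -0.36 (Cd274), -0.48 (Tap1), -0.82 (Tap2), -0.32 (Tapbp), -0.84 (Nlrc5), -0.82 (Ciita), -2.26 (Ifnb1), -0.32 (Tbx21), -0.25 (Cd3e), -0.27 (Tcf7), -0.23 (Pdcd1), -0.14 (Tnf), -0.88 (S100a8), -0.09 (Tnfsf10), -0.24 (Mlkl), -0.61 (Irf8), -0.28 (Casp12) and -0.004 (Irgm1). With the 4 PBS tumors pooled the count was 0 and the median 0.66, and Ifnb1 (-1.3) and S100a8 (-0.04) turned sign. DESeq2, added after seeing the data for these controls, called 53 and 25 genes.

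Against 2-dose PBS the count of 164 genes became 357 with DESeq2, 713 without the filter on low counts, 276 in a fit of only the 2 groups, 102 in a fit of only the 2-dose groups, and 62 to 619 without any 1 tumor. The list median was 1.68 to 2.25 without any 1 tumor. Against 20 µg the count of 4305 became 2350 in a fit of only the 2 groups, 6817 without the ratio limit and 2638 to 6571 without any 1 tumor. Against exoCDN2 the count of 1092 became 1846 without the filter, 322 in a fit of only the 2-dose groups and 170 to 1415 without any 1 tumor. For 20 µg against 2-dose PBS, 3060 genes changed in a fit of only the 2 groups and 7961 without the ratio limit, and for exoCDN2 1243 in the fit of only the 2-dose groups and 942 to 2066 without any 1 tumor. The cause of these shifts was not tested. Some gene values turned sign when 1 tumor was left out, with ranges of -0.75 to 1.59 (Cxcr2), -0.16 to 0.31 (Ccnb1) and -0.04 to 0.32 (Tyrp1) against 2-dose PBS, of -0.8 to 0.34 (Ifng), -0.22 to 0.12 (Tbx21), -0.71 to 0.04 (Iigp1), -0.6 to 0.39 (Nlrc5), -0.45 to 1.15 (Pdcd1), -0.79 to 0.02 (Gxylt2) and -0.08 to 0.9 (Cd3e) against 20 µg, and of -0.02 to 0.33 (Tcf7) against exoCDN2. Cxcr2 was also at 0.02 with DESeq2.

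The labels number the tumors of each group but do not say that a number marks a shared batch, and deviations of same-numbered tumors correlated at 0.22 (against 2-dose PBS), -0.14 (against 20 µg) and -0.02 (against exoCDN2). With the replicate block these counts were 157, 4239 and 1026 (5123 for 20 µg and 1859 for exoCDN2 against 2-dose PBS). Under the block Ifng gained a call and Ifit1, Ifi204 and Adam33 lost theirs against 2-dose PBS, S100a8 and Mmp8 lost theirs and Pdcd1 gained one against exoCDN2, and Cxcr2 was at 0.04 against 2-dose PBS. With 2 tumors a group, and PBS groups that differ from each other, the size of the difference from PBS rests on which control is taken. Depth limits Ifnb1, Serpinc1 and Cxcr2, which had only a few counts in each tumor of unlabelled amount, and a group left with 1 tumor was assumed to vary like the others. Low counts also limit the neutrophil list, at a mean log2 level of 2.64 and 3.13 in these tumors. RLE factors changed none of the 5 counts by over 1.5 times.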

Other observations

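The genes named here were chosen after their values were seen. For some genes the tumors of unlabelled amount lay above all 4 PBS tumors. Mmp8, a collagenase of neutrophils, had 57.1 and 88.1 normalised counts against 25.6 and 22.3 after 1-dose PBS and 17.2 and 2.76 after 2-dose PBS (edgeR adjusted p = 0.17 against 2-dose PBS), beside 3943 and 884 at 20 µg in 2 doses. In the neutrophil list 3 of 14 genes lay above all 4 PBS tumors and 0 below. That list's median against 1-dose PBS was 0.07, with 7 of 14 positive. Ly6c2, a marker of inflammatory monocytes, had 414 and 1165 against 187 and 406 and against 121 and 86.3 (edgeR adjusted p = 0.078 against 2-dose PBS), and the groups of 1-dose PBS and unlabelled amount did not overlap. In the macrophage and monocyte list 2 of 18 genes lay above all 4 PBS tumors and 1 below. That list's median against 1-dose PBS was -0.07, with 8 of 18 positive. Bnip3, a mitophagy receptor induced in hypoxia, had 17522 and 22070 against 13622 and 12369 and against 8660 and 8606 (edgeR adjusted p = 0.059 against 2-dose PBS). Both tumors lay above all 4 PBS tumors for 5 of 12 endothelial genes, beside 6.93% of all genes, and 0 of these 12 genes changed against 2-dose PBS with edgeR.

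Irf8, a transcription factor of dendritic cells and monocytes that interferon gamma also induces, rose against 2-dose PBS, with 1616 and 1622 normalised counts against 301 and 300 (2.42, edgeR adjusted p = 0.037). It had 2149 and 2713 after 1-dose PBS. In the dendritic cell list 2 of 13 genes rose against 2-dose PBS, Irf8 and Bst2, and Bst2 is also on the interferon-stimulated list. The dendritic cell list's median was 0.47 with 7 of 13 positive, and against 1-dose PBS it was -0.24 with 3 of 13 positive. Both tumors of unlabelled amount lay above all PBS tumors for 1 of the 13 genes and below them for 3. Casp12, an inflammatory caspase, had 247 and 594 against 55.8 and 29.4 (3.28, edgeR adjusted p = 0.0061) and 497 and 506 after 1-dose PBS. For Irf8 and Casp12 the tumors given 1 dose of PBS lay at or above the lower tumor of unlabelled amount.

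Trex1, a DNase that limits STING activation by cytosolic DNA, had 255 and 359 normalised counts in the tumors of unlabelled amount, above 248 and 218 after 1-dose PBS and 126 and 162 after 2-dose PBS (edgeR adjusted p = 0.36 against 2-dose PBS). It was below 20 µg in 2 doses, at 6862 and 2272 (-3.85 ± 0.43, edgeR adjusted p = 1e-04), and below exoCDN2 in 2 doses, at 1551 and 853 (-2 ± 0.4, edgeR adjusted p = 0.0089).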
